A study of Mus musculus with 10 samples.

Results

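AP-1 is a family of transcription factors built from pairs of FOS, JUN, ATF and MAF proteins, which bind DNA through a basic region and dimerise through a leucine zipper. Many of its genes are immediate early genes, which are transcribed within minutes of a growth factor, a wound or a cell stress because the proteins that switch them on are already present in the cell. In the intestinal epithelium JUN and FOS proteins act downstream of MAP kinases in proliferation and in repair. Their transcripts are short-lived, and they are also known to rise when tissue is handled or dissociated. The 10 genes described here were given as a list by symbol, with no threshold on measured values, and comprise the FOS family genes Fos, Fosb and Fosl2, the JUN family genes Jun, Junb and Jund, the AP-1 partners Atf3 and Maff, and the immediate early genes Egr1 and Ier2. All 10 were among the 54838 genes listed for each library, and all 10 were among the 14719 genes that passed the filter on low counts and were tested.

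The libraries came from jejunal crypts of 10 mice, 5 WT and 5 Arid3a cKO, with 1 animal per library. Arid3a cKO mice were VillinCre-ERT2; Arid3a fl/fl, in which a tamoxifen-activated Cre recombinase under the Villin promoter removes the floxed part of Arid3a in epithelial cells of the intestine, so other cell types keep the gene. WT and cKO mice were injected with tamoxifen on 3 consecutive days and were culled 1 month after the first injection, and the alleles carried by the WT mice were not given in the labels. Villi were scraped off and crypts were then released with EDTA and DTT, in steps in the cold and at body temperature, before RNA extraction. The ages of the animals were not given in the sources used here.

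The expected counts of a library, RSEM's estimate of the reads of each gene, summed to between 27050455 and 28152743 in WT and to between 28314069 and 31053622 in cKO animals, with no overlap. Levels are given as CPM, which are counts scaled by edgeR's TMM factors to a common library size, and differences as log2 fold changes of cKO against WT fitted by edgeR (quasi-likelihood test), with p adjusted by the Benjamini-Hochberg method over all genes tested. Arid3a itself was lower in cKO crypts by a log2 fold change of −1.84 (SE 0.32, adjusted p = 0.00204), without overlap between the genotypes. Of 14719 genes, 28.3% were called at an adjusted p below 0.05, 15.6% as higher and 12.7% as lower in cKO animals. The animal identifiers in the labels had 6 stems, and 0 were shared between the genotypes, so a difference between litters or colonies cannot be told apart from genotype if the stems mark them, which the labels do not say. Within genotypes a stem was shared by WT replicates 2 and 3, WT replicates 4 and 5, cKO replicates 1 and 2, and cKO replicates 4 and 5. If stems mark litters, these animals are not independent, while the tests treat every animal as independent. In bulk crypts fewer cells of a type and less RNA per cell cannot be told apart.

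Of the 10 genes, Fos, Fosl2, Junb and Maff rose in cKO crypts, none fell by the test, and 6 were not called. The 4 genes called are 40% of the list, beside 28.3% of all genes tested, and 4 of 10 called higher stand beside 15.6% of all genes. Scaled by library size only, which moved the median of all genes to −0.16, 2 of the 10 were higher (Fos and Fosl2) and 2 lower (Fosb and Ier2), beside 37.8% of all genes called, 10.5% as higher and 27.4% as lower. With limma on log2(TPM + 0.5), where the median of all genes was −0.12, 0 were higher and 1 was lower (Fosb), beside 28.2% called, 9.52% as higher and 18.7% as lower. The median log2 fold change of the 10 genes in the edgeR fit was 0.27, beside −0.03 over all genes tested. The CPM ranges of the genotypes did not overlap for 2 of the 10 genes, both higher in cKO animals, beside 19.6% of all genes tested (12.0% above and 7.63% below WT), so that 2 of 10 is close to the share of genes at large. The counts and the median describe a list of 10 genes, and no test of the list as a whole was made.

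The promoters of the 4 genes that rose are shown because they show which of the motifs searched lie in the 250 bases before each RefSeq start. Sequence further upstream was not searched, so a response element that lies there would be missed. The sequences are the 250 bases before the RefSeq transcript start on GRCm38.p6, written 5′ to 3′ on the strand of the gene, and capitals mark the motifs found. For Maff, which has 3 annotated starts, the window before the second start is shown, and those before the other starts are described below. The windows are Fos at chr12:85473640-85473889 (plus strand), Fosl2 at chr5:32136222-32136471 (plus strand), Junb at chr8:84978749-84978998 (minus strand) and Maff at chr15:79347270-79347519 (plus strand).
Fos: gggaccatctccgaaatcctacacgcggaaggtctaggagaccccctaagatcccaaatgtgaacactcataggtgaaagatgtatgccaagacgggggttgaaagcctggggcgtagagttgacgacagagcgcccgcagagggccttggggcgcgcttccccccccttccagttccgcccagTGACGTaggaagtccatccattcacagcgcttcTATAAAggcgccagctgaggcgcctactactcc
Fosl2: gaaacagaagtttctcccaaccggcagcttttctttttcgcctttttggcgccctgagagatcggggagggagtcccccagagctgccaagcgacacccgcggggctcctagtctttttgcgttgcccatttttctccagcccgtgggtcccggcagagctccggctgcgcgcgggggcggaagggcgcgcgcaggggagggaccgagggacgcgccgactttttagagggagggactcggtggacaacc
Junb: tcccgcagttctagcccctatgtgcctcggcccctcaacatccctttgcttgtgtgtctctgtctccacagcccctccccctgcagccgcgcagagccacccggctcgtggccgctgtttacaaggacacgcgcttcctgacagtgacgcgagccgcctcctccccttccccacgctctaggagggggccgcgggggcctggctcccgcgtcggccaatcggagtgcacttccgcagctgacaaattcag
Maff: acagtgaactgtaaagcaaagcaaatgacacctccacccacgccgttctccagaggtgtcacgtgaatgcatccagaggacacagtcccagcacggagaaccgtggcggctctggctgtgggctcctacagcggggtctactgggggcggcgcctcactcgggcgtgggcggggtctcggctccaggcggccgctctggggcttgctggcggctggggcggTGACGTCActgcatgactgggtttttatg

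Motifs were searched on both strands in these windows as TGACTCA (the AP-1 site), TGACGTCA (the cAMP response element), TGACGT (the core of that element, which lies inside it), TGACATCA (a variant AP-1 site described in the Jun promoter), TATAAA and the CArG box bound by SRF. Windows were available for 8 of the 10 genes, with no entry for Egr1 and Ier2. The Fos window held TGACGT from 66 to 61 bases before the start and TATAAA from 33 to 28 bases before it. The first Maff window (chr15:79346371-79346620), which ends directly before the gene start given below, held none of these motifs. The second Maff window, the one shown, held TGACGTCA from 29 to 22 bases before the start, and the third held TGACATCA from 45 to 38 bases before it. Jun, which was not called, also held TGACATCA from 45 to 38 bases before its start, and Atf3 held TGACGT on the opposite strand from 8 to 3 bases before its start. None of the letters searched were found in the windows of Fosl2, Junb, Fosb and Jund, and TGACTCA and the CArG box were in none of the 8 genes' windows. The RefSeq starts of Fosl2, Jund and Atf3 differ from the gene spans given below, and those of Junb and Fosb differ from them slightly. The Fosl2 window lies inside the span that begins at 32135801. The Jund window (chr8:70697489-70697738) ends well before the gene start at 70698949. The Atf3 window (chr1:191183334-191183583) lies well inside the minus-strand span that ends at 191218039, so its match lies before a start within the span. For Fosl2, Jund, Junb and Fosb the absence of motifs holds only for the windows searched. Over the 27025 genes with windows of this length, 5.16% held TGACTCA, 1.77% TGACGTCA, 7.29% TGACGT, 3.41% TGACATCA, 14.3% TATAAA and 1.62% the CArG box. Among the 4 genes that rose, windows with and without these motifs were thus both present, and a match in the letters is not a measured binding site.

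The FOS proteins pair with JUN proteins and cannot pair with themselves. Fos, the prototype immediate early gene (chr12:85473890-85477273, plus strand), was at 18.3, 20.1, 15.0, 18.3 and 11.7 CPM in WT replicates 1 to 5 and at 34.4, 30.5, 17.8, 47.0 and 25.2 CPM in cKO replicates 1 to 5. Of the cKO animals, 4 lay above every WT animal, and cKO replicate 3 lay within the WT range. The means were 16.7 ± 3.33 CPM (SD, n = 5) in WT beside 31.0 ± 10.9 CPM (SD, n = 5) in cKO crypts, a log2 fold change of 0.89 (SE 0.24, 95% interval 0.36 to 1.42, adjusted p = 0.0195). Leaving out any single animal kept the call, with log2 fold changes from 0.69 to 1.04, but on log2(TPM + 0.5) it was lost, at 0.53 (limma, adjusted p = 0.174). The call was lost, with a log2 fold change of 0.73 (adjusted p = 0.0538), when the effective length that RSEM gives each gene in each library entered as an offset. That length, a mean over the transcripts of the gene weighted by their estimated abundance, was 1340 to 1720 bases in WT and 1567 to 1861 bases in cKO libraries, and the annotation gives Fos 1 protein-coding and 3 processed transcripts.

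Fosl2, which encodes FRA2, a FOS protein without the strong activation domain of FOS (chr5:32135801-32157842, plus strand), was at 69.8, 68.3, 80.4, 67.1 and 68.8 CPM in the WT animals and at 92.0, 89.2, 84.3, 101.5 and 95.3 CPM in the cKO animals. In CPM every cKO animal lay above every WT animal. In TPM the ranges overlapped, at 13.13 to 16.45 in WT and 15.78 to 20.43 in cKO animals. The log2 fold change of 0.38 was smaller than that of Fos but had a smaller error (SE 0.07, 95% interval 0.23 to 0.54, adjusted p = 0.00292), and the animals of a genotype differed little. On log2(TPM + 0.5) the log2 fold change was 0.25 and the call was lost (limma, adjusted p = 0.0656). Genotype held 81.3% of the variance of log2 CPM of Fosl2 between the 10 animals, beside 54.9% for Fos and a median of 29.4% over all genes tested.

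Fosb, whose protein pairs with JUN proteins and exists in a long and a truncated form (chr7:19302696-19310051, minus strand), had the opposite sign. It was at 2.44, 2.17, 1.39, 1.91 and 0.946 CPM in the WT animals and at 0.842, 1.03, 0.874, 1.53 and 0.719 CPM in the cKO animals, so WT replicates 3 and 5 lay within the cKO range and cKO replicates 2 and 4 within the WT range. The log2 fold change was −0.82 (SE 0.29, 95% interval −1.46 to −0.19) and just missed the threshold (adjusted p = 0.0532). Only 19 to 70 counts per library lie behind these values. Without WT replicate 5 the adjusted p was 0.0261 and the log2 fold change −0.96, and without cKO replicate 4 they were 0.0276 and −1.03. The other 8 fits that left out 1 animal missed the threshold, with adjusted p up to 0.118 and a log2 fold change of −0.68 without WT replicate 1.

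JUN proteins pair with each other and with FOS proteins, and JUNB and JUND often oppose JUN in growth control. Junb (chr8:84974484-84978718, minus strand) was at 22.1, 23.3, 18.6, 18.2 and 22.2 CPM in the WT animals and at 29.2, 24.0, 24.3, 37.4 and 29.2 CPM in the cKO animals. The lowest cKO animal, at 24.0 CPM, lay just above the highest WT animal, at 23.3 CPM, so the CPM ranges did not overlap. In TPM the ranges overlapped, at 14.23 to 17.21 in WT and 16.3 to 28.07 in cKO animals. The log2 fold change was 0.47 (SE 0.12, 95% interval 0.20 to 0.74, adjusted p = 0.0157), and leaving out any single animal gave 0.36 to 0.52 with the call kept. It missed the threshold when scaled by library size only (0.34, adjusted p = 0.0512) and on log2(TPM + 0.5) (0.35, limma, adjusted p = 0.0649). Its 3′ end region overlaps Prdx2 on the opposite strand by 351 bases, and whether the counting used strand was not given in the sources used here. Prdx2, a peroxiredoxin, was at 185 ± 25.8 CPM (SD, n = 5) in WT beside 180 ± 3.90 CPM (SD, n = 5) in cKO crypts, with a log2 fold change of −0.04 (adjusted p = 0.776).

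Jun (chr4:95049034-95052222, minus strand) ranged from 25.4 to 49.6 CPM in WT and from 28.6 to 49.99 CPM in cKO animals, which nearly coincide. Its log2 fold change was −0.12 with a 95% interval from −0.52 to 0.29 (adjusted p = 0.668) and the interval holds changes in either direction. Jund (chr8:70698949-70700616, plus strand), the JUN gene with the most constant expression in most tissues, ranged from 49.1 to 70.6 CPM in WT and from 51.5 to 77.4 CPM in cKO animals. Its log2 fold change was 0.16 with a 95% interval from −0.12 to 0.44 (adjusted p = 0.368). Antisense genes overlap Jun and Jund, with at most 19 counts for Junos and at most 25 counts for Gm11175 in a library.

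Maff and Atf3 had the lowest levels beside Fosb. MAFF is a small MAF protein without an activation domain that pairs with other basic leucine zipper proteins. Maff (chr15:79346621-79359076, plus strand) was at 1.85, 1.55, 2.21, 1.84 and 3.27 CPM in the WT animals and at 3.47, 3.35, 2.41, 3.84 and 4.28 CPM in the cKO animals. Of the WT animals, replicate 5 was the only animal inside the cKO range. The log2 fold change of 0.70 passed the threshold (SE 0.22, 95% interval 0.21 to 1.18, adjusted p = 0.0362). When 1 animal was left out, the call was kept only without WT replicate 5 (0.92, adjusted p = 0.00970) or without cKO replicate 3 (0.80, adjusted p = 0.0234). Leaving out WT replicate 1, 2, 3 or 4 gave 0.60 to 0.71 (adjusted p 0.0620 to 0.0826), and leaving out cKO replicate 1, 2, 4 or 5 gave 0.61 to 0.70 (adjusted p 0.0602 to 0.0912). Scaling by library size only (0.57, adjusted p = 0.0561) and log2(TPM + 0.5) (0.44, limma, adjusted p = 0.0602) also left Maff short of the call. Atf3, a stress-inducible ATF protein (chr1:191170296-191218039, minus strand), ranged from 1.00 to 2.24 CPM in WT and from 1.68 to 2.99 CPM in cKO animals. Its log2 fold change was 0.45 with a 95% interval from −0.14 to 1.04 (adjusted p = 0.236).

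**Figure D1:**
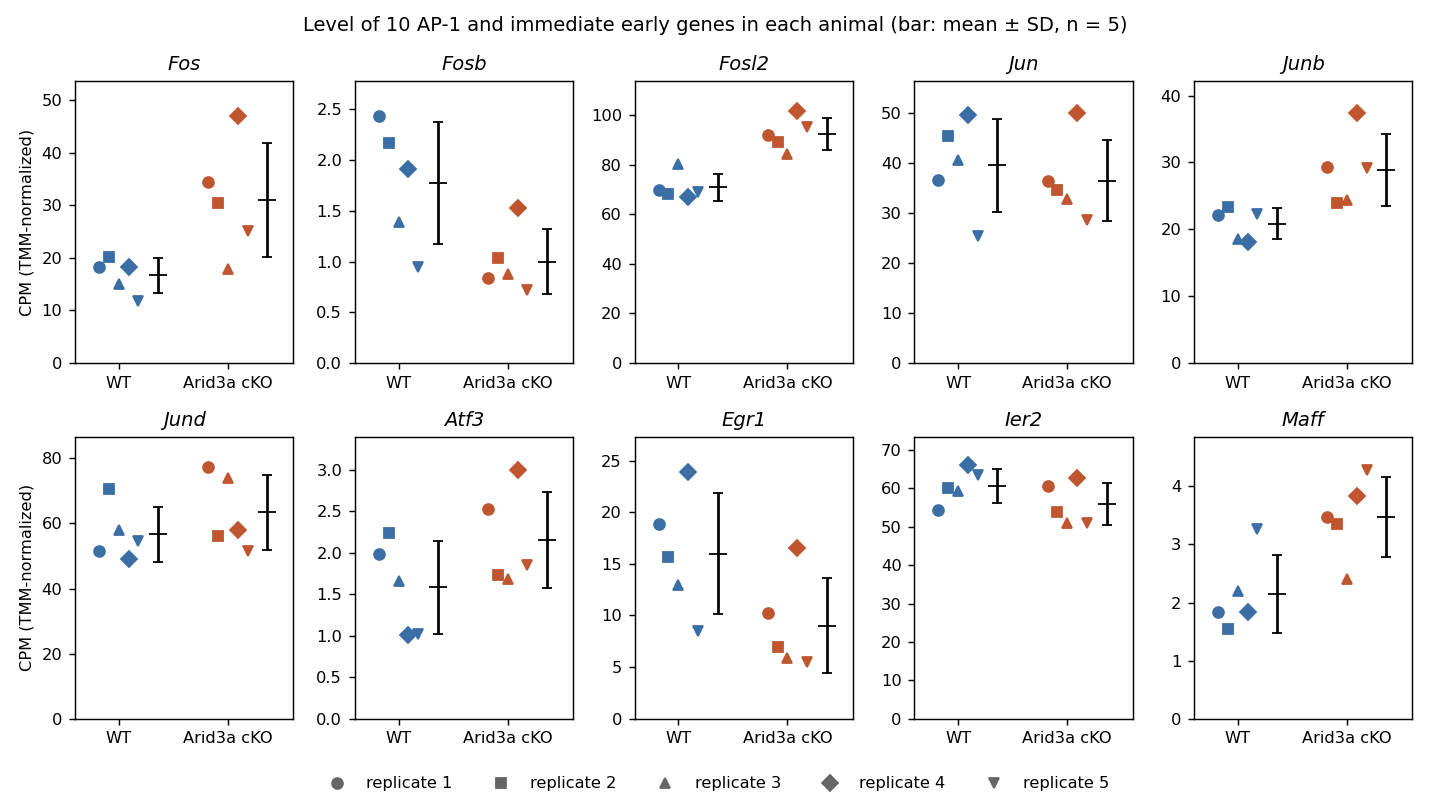
Level in CPM (y axis, TMM-normalized, from 0) of each of the 10 genes in the 5 WT (blue) and 5 Arid3a cKO (orange) animals, with a symbol for each replicate and the mean ± SD (n = 5) in black. In CPM the genotypes do not overlap for Fosl2 and Junb, and cKO replicate 4 (diamond) is the highest cKO animal in 8 of the 10 genes.

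EGR1 is a zinc finger factor induced through the same kinases as FOS, and IER2 is a nuclear protein of the immediate early response. Egr1 was at 18.9, 15.7, 13.0, 23.9 and 8.47 CPM in the WT animals and at 10.2, 6.93, 5.87, 16.5 and 5.53 CPM in the cKO animals. The means were lower in cKO crypts, at 9.01 ± 4.59 CPM (SD, n = 5) beside 16.0 ± 5.84 CPM (SD, n = 5), but the ranges overlapped widely. The log2 fold change of −0.82 (SE 0.36, 95% interval −1.63 to −0.02) did not pass the threshold (adjusted p = 0.114). Without cKO replicate 4 it was −1.16 and passed (adjusted p = 0.0226). The other 9 fits that left out 1 animal missed the threshold (adjusted p up to 0.243). Ier2 (chr8:84661331-84662852, minus strand) was the steadiest of the 10 genes beside Fosl2, with 54.3 to 66.1 CPM in WT and 50.9 to 62.8 CPM in cKO animals and a log2 fold change of −0.12 (95% interval −0.29 to 0.05, adjusted p = 0.286).

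**Figure D2:**
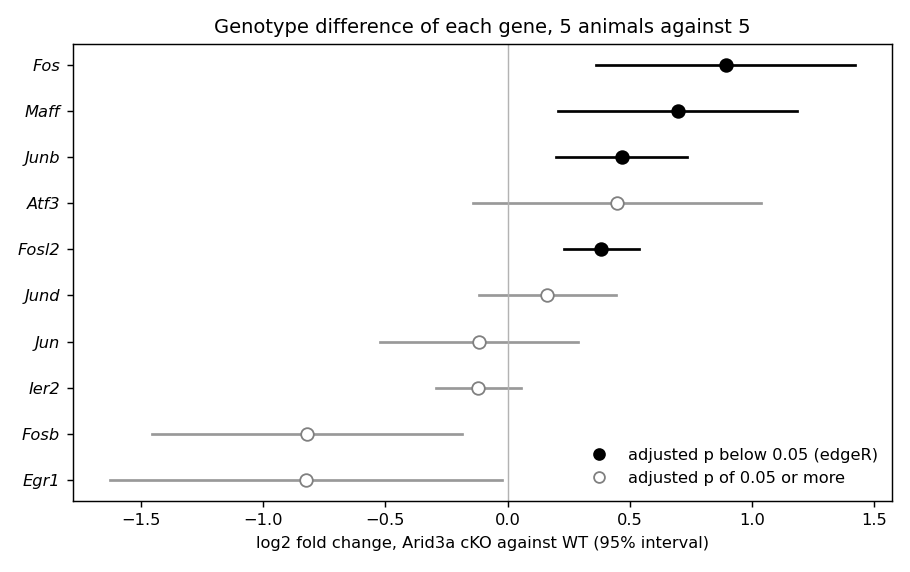
Log2 fold change of cKO against WT (x axis) with its 95% interval for each of the 10 genes, sorted by size, with filled points for an adjusted p below 0.05. The 4 filled points lie between 0.38 and 0.89, and Fosb and Egr1 lie at −0.82 with intervals that reach to −0.19 and −0.02.

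Levels of different genes were compared as TPM, which are per length of transcript. In WT crypts Ier2 (55.0 ± 5.40 TPM, SD, n = 5) and Jund (46.5 ± 5.996 TPM, SD, n = 5) were the most abundant, and their ranges over animals overlapped. Jun, Junb, Fos and Fosl2 followed at means of 14.6 to 16.6 TPM, with overlapping ranges, and Egr1 at 7.01 ± 2.88 TPM (SD, n = 5) overlapped the range of Fos. Maff (1.56 TPM), Atf3 (1.498 TPM) and Fosb (0.734 TPM) were the lowest. In cKO crypts the mean of Fos was 22.6 TPM and that of Junb 20.4 TPM, and the mean of Egr1 was 3.68 TPM. Ier2 and Jund remained the highest, with 47.5 and 48.8 TPM.

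The spread between animals of a genotype differed from gene to gene. The SD of log2 CPM within genotypes was 0.32 at the median of the 10 genes, beside 0.18 over all genes tested, which are not matched for level, and it was 0.59 for Egr1, 0.42 for Fos and 0.10 for Fosl2. Among genes of like level, 97.1% had a smaller SD than Egr1, 96.2% a smaller SD than Fos and 95.2% a smaller SD than Jun. Jund (88.9%) and Junb (80.4%) were also in the upper part, Atf3 (65.8%), Fosb (64.5%) and Maff (59.3%) were closer to the middle, and Ier2 (43.4%) and Fosl2 (29.6%) varied less than most genes of like level. For Jun, genotype held 2.95% of the variance between animals, for Jund 12.3% and for Egr1 38.5%.

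In cKO replicate 4 and WT replicate 5 several of these genes lay far from the mean of the genotype. In cKO replicate 4 the log2 CPM lay above the mean of the cKO animals by 0.96 for Egr1, 0.66 for Fos, 0.48 for Jun, 0.46 for Fosb, 0.42 for Atf3 and 0.39 for Junb, and this animal was the highest of the cKO animals in 8 of 10 genes, all but Jund and Maff. In WT replicate 5 the values lay below the WT mean, at −0.80 for Egr1, −0.61 for Fosb, −0.59 for Jun and −0.46 for Fos, and this animal was the lowest of the WT animals in those 4 genes. Maff had the opposite order in WT replicate 5, at 0.55 above the WT mean.

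Both libraries also stood apart in other gene groups. The summed level of 6 fibroblast markers was 132 CPM in cKO replicate 4, beside 8.997 to 22.6 CPM in the other cKO animals and 9.04 to 81.6 CPM in the WT animals. The 6 macrophage and myeloid markers summed to 96.2 CPM in cKO replicate 4, beside 11.9 to 31.7 CPM in the other cKO animals and 26.3 to 70.8 CPM in the WT animals. The 15 heat shock genes summed to 19620 CPM in WT replicate 5, beside 8677 to 12605 CPM in the other WT animals and 8031 to 9685 CPM in the cKO animals. Hspa1b, an inducible HSP70 gene chosen here after its values were seen, was at 415 CPM in WT replicate 5, beside 10.4 to 50.3 CPM in the other WT animals and 4.86 to 34.8 CPM in the cKO animals, and RSEM divides reads between it and its near-identical neighbour Hspa1a. The part of fibroblasts, myeloid cells and heat shock genes in the values of the 10 genes was not tested.

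**Figure D3:**
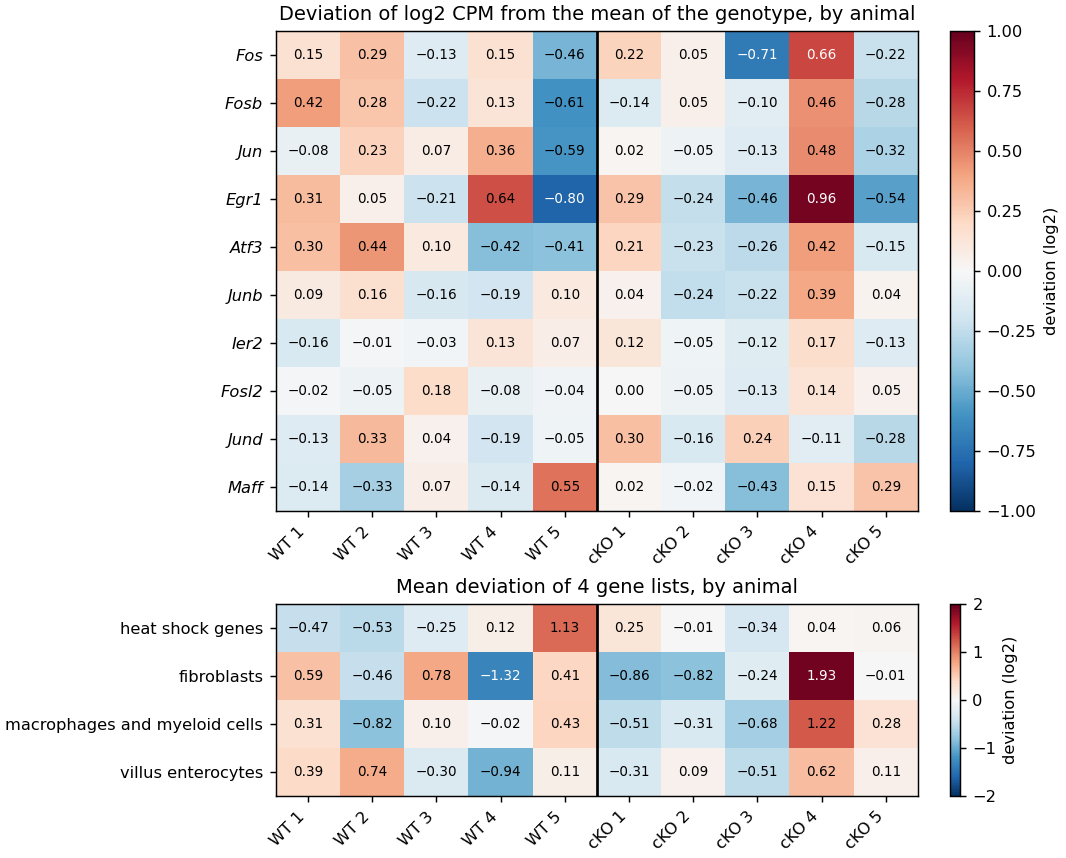
Deviation of log2 CPM from the mean of the genotype (colour and printed value) for the 10 genes in each animal (top) and the mean deviation of 4 gene lists (bottom, on a wider colour scale). In cKO 4 the deviation is 0.96 for Egr1 and 0.66 for Fos, and in WT 5 it is −0.80 for Egr1 and −0.46 for Fos.

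Without WT replicate 5 and cKO replicate 4 together, an alternative chosen after the data were seen, 20.4% of all genes were called, 11.5% as higher and 8.94% as lower in cKO animals. Of the 10 genes, 6 were then called. Fosl2 (0.34, adjusted p = 0.0163), Junb (0.37, adjusted p = 0.0428) and Maff (0.86, adjusted p = 0.0230) were higher. Fosb (−1.19, adjusted p = 0.0136), Egr1 (−1.32, adjusted p = 0.0101) and Jun (−0.38, adjusted p = 0.0330) were lower. Fos kept its sign at 0.59 and missed the threshold (adjusted p = 0.0520). In Fosb, Egr1, Jun and Fos, WT replicate 5 was the lowest WT animal and cKO replicate 4 the highest cKO animal. Leaving both out therefore had to move these genes towards lower in cKO animals, so their added calls are no separate support. The direction of none of the 10 genes changed.

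Ratios of 2 genes within an animal leave out what both genes share in that animal, such as the scaling of the library. The ratio of Fos to Egr1 was 0.764 to 1.39 in WT and 2.84 to 4.55 in cKO animals, with medians of 1.15 and 3.37. The ratio of Fos to Jun was 0.368 to 0.5005 in WT and 0.545 to 0.946 in cKO animals. Junb to Ier2 gave 0.275 to 0.407 and 0.445 to 0.595, and Fos to Fosb gave 7.5 to 12.4 and 20.4 to 40.8. In these 4 ratios, which were chosen after their values were seen, no cKO animal overlapped a WT animal, including cKO replicate 3, whose Fos level lay within the WT range. Among all 45 pairs of the 10 genes the ratios of 24.4% did not overlap between genotypes, beside 19.0% of all pairs of genes tested, so the share of such pairs was close to that of genes at large.

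**Figure D4:**
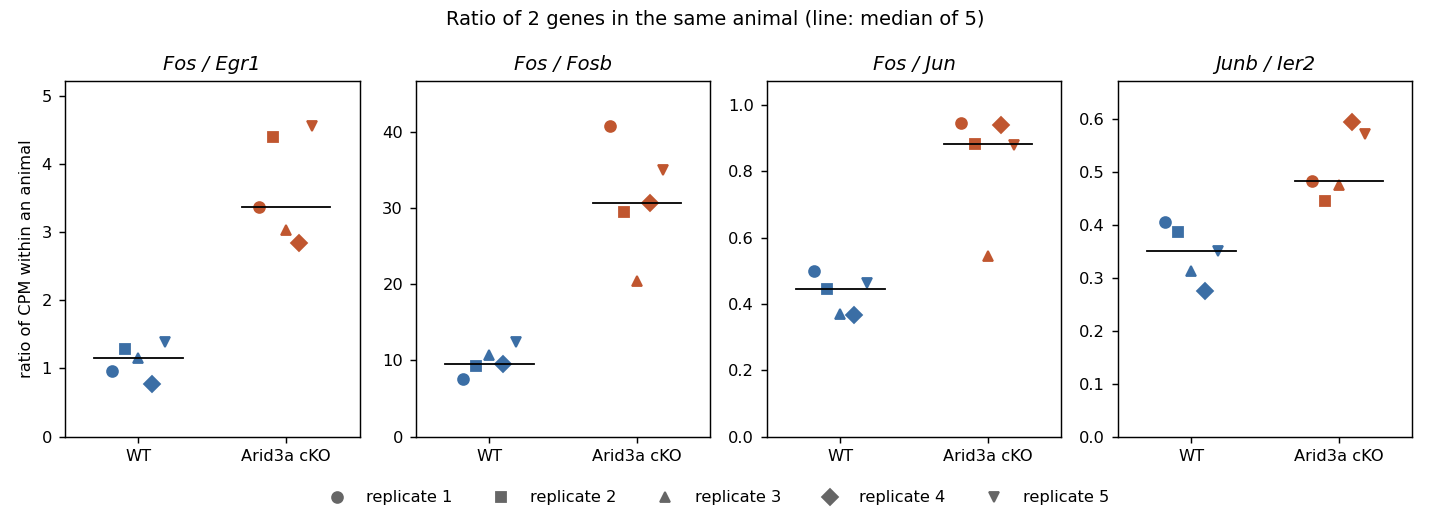
Ratio of the CPM of 2 genes in the same animal (y axes, from 0) for 4 pairs, in 5 WT (blue) and 5 Arid3a cKO (orange) animals, with the median as a line and a symbol for each replicate. The Fos to Egr1 ratio is at most 1.39 in WT and at least 2.84 in cKO animals.

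The lists of related genes are read beside the 28.3% of all genes called, 15.6% as higher and 12.7% as lower, and the shares called of the AP-1 family (33.3%), feedback (25.0%), upstream (29.4%) and target genes (30.0%) tested lay near it. Of 9 further AP-1 family genes, 6 were tested and 2 were called, both as higher in cKO crypts without overlap, and the median log2 fold change was 0.11. Atf2, a partner of JUN, was at 48.1 ± 2.98 CPM (SD, n = 5) in WT beside 59.6 ± 1.99 CPM (SD, n = 5) in cKO crypts, a log2 fold change of 0.31 (adjusted p = 0.00422). Mafk, a small MAF gene like Maff, rose by a log2 fold change of 0.24 (adjusted p = 0.0364), a call that did not hold when WT replicate 1, 3 or 4 or cKO replicate 1, 4 or 5 was left out (0.19 to 0.28 over all animals left out in turn, adjusted p up to 0.105). Fosl1, Batf and Batf3 had at most 17 counts in a library and were not tested.

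Of 27 other immediate early genes, 25 were tested, 7 rose and 3 fell, so that 40% were called beside 28.3% of all genes, and the median log2 fold change was 0.06. Sgk1, a kinase that is induced by serum and glucocorticoids, had the largest difference, at 11.9 ± 4.75 CPM (SD, n = 5) in WT beside 59.8 ± 22.9 CPM (SD, n = 5) in cKO crypts, a log2 fold change of 2.33 (SE 0.35, adjusted p = 0.00226). Klf6 (1.00, adjusted p = 8.33e-04) and Klf4 (0.70, adjusted p = 0.00165), zinc finger factors of which KLF4 marks differentiated epithelium, rose as well. Zfp36, whose protein promotes the decay of short-lived mRNAs such as those of immediate early genes, rose by 0.92 (adjusted p = 0.00437). In the other direction, Egr2, a relative of Egr1, fell by 1.603 on the log2 scale (adjusted p = 0.0161), with 5 to 58 counts per library. Ccn1, a matricellular protein gene, fell by 0.72 (adjusted p = 0.0180). Nr4a1, an orphan nuclear receptor gene, fell by 1.16 (adjusted p = 0.0194), which was lost without WT replicate 4 (−0.97, adjusted p = 0.0543). Dusp1, the phosphatase gene that is often induced together with Fos and is named here after its values were seen, was at 1.62 ± 0.234 CPM (SD, n = 5) in WT beside 1.69 ± 0.328 CPM (SD, n = 5) in cKO crypts and was not called (adjusted p = 0.834).

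Of 12 genes that are induced by MAP kinase signalling and feed back on it, 2 rose and 1 fell, with a median of 0.06. Dusp6, a phosphatase that acts on ERK, was at 6.39 ± 0.587 CPM (SD, n = 5) in WT beside 14.9 ± 5.19 CPM (SD, n = 5) in cKO crypts (1.22, adjusted p = 0.00275), and Dusp5, a nuclear ERK phosphatase, rose by 0.61 (adjusted p = 0.0139), both without overlap. Etv4, an ETS factor, fell by 0.65 (adjusted p = 0.0412), a call that did not hold when WT replicate 4 or 5 or cKO replicate 1, 2, 4 or 5 was left out (−0.76 to −0.43, adjusted p up to 0.0963). Of 17 kinases and factors upstream of the immediate early genes, 3 rose and 2 fell, with a median of −0.03. The kinases Mapk8, which encodes JNK1 (0.45, adjusted p = 0.00151), Map2k4, which activates JNK (0.31, adjusted p = 0.00246), and Map2k1, which activates ERK (0.30, adjusted p = 0.00750), rose without overlap. Map2k7, another activator of JNK, fell by 0.27 (adjusted p = 0.0225), and this did not hold when WT replicate 3 or 4 or cKO replicate 4 was left out (adjusted p up to 0.0600). Srf, which binds the CArG box, fell by 0.24 (adjusted p = 0.0498), and this call was lost in 9 of 10 fits that left out an animal, all but that without WT replicate 1 (−0.28 to −0.18, adjusted p up to 0.129).

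Of 13 reported AP-1 target genes, 10 were tested, none rose and 3 fell, with a median of −0.25. Ccnd1, which encodes cyclin D1, was at 165 ± 23.5 CPM (SD, n = 5) in WT beside 119 ± 11.6 CPM (SD, n = 5) in cKO crypts and fell by 0.47 (adjusted p = 0.005998) without overlap. The protease gene Mmp13 (2 to 49 counts per library) fell by 2.18 on the log2 scale (adjusted p = 0.0294), and the urokinase receptor gene Plaur (9 to 38 counts) fell by 1.08 (adjusted p = 0.0408). The Mmp13 call did not hold when WT replicate 4 or 5 or cKO replicate 1, 3, 4 or 5 was left out (adjusted p up to 0.0736), and the gene failed the filter without cKO replicate 2, while the Plaur call was kept in 3 of 10 fits that left out an animal (adjusted p up to 0.1002 in the others). Of 15 heat shock genes, 13 were tested and 1 was called, which is 7.69%, with a median of −0.35. Hsf1, the heat shock transcription factor gene, fell by 0.27 (adjusted p = 0.0472), and without WT replicate 5 no heat shock gene was called and Hsf1 was at −0.19 (adjusted p = 0.105).

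The lists were also counted without WT replicate 5 and cKO replicate 4. In that fit 20.4% of all genes were called, 11.5% as higher and 8.94% as lower. Of the 6 further AP-1 family genes tested 1 was then higher, and of the 25 other immediate early genes 5 were higher and 4 lower. Of the 12 feedback genes 2 were higher and 0 lower, and of the 17 upstream kinases and factors 3 were higher and 1 lower. Of the AP-1 target genes 2 were lower, of 9 tested, and of the 13 heat shock genes tested 1 was lower.

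Markers of the labelled tissue were present in every library, where 5 epithelial markers summed to 4344 to 5164 CPM in WT and 5378 to 6158 CPM in cKO animals, with 2 of 5 called as higher. Some marker groups moved with genotype and others did not. The 5 markers of villus enterocytes summed to 421 to 1679 CPM in WT and 2476 to 5446 CPM in cKO animals, with 4 of 5 called as higher, and cKO replicate 4 had the highest sum. Without WT replicate 5 and cKO replicate 4, 1 of these 5 was called as higher. The 4 markers of the crypt base and Paneth cells summed to 9588 to 16902 CPM in WT and 7278 to 8976 CPM in cKO animals, with 3 of 4 called as lower. The 4 markers of B and plasma cells summed to 18.9 to 48.4 CPM in WT and 6.15 to 14.3 CPM in cKO animals (1 of 4 lower), and the 5 markers of T cells to 47.9 to 199 CPM and 90.3 to 222 CPM (0 of 5 called). Of the 6 fibroblast markers 0 were called (median log2 fold change −0.17), and of the 6 myeloid markers 2 were lower (median −0.85). Leaving out cKO replicate 4, which had the highest cKO sum in both groups, moved the medians to −1.65 and −1.44. In that fit 3 of 6 markers in each group were called as lower. Without WT replicate 5 and cKO replicate 4, 1 fibroblast marker and 3 myeloid markers were called as lower. Smooth muscle markers summed to 2.18 to 5.33 CPM in WT and 1.38 to 3.77 CPM in cKO animals, with 1 of 4 tested called as lower. Endothelial markers summed to 2.24 to 4.34 CPM in WT and 0.959 to 2.16 CPM in cKO animals without overlap, and Pecam1, the only 1 of 4 tested, was lower (−1.19, adjusted p = 0.00984). Glial and neuronal markers summed to at most 1.53 CPM in any library, with Sox10 and Elavl4 at 3 counts or fewer in every library. The part of the enterocyte, crypt base, immune, smooth muscle and endothelial cell markers in the differences of the 10 genes was not tested.

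The genes whose deviations from the genotype means were most like the mean deviation of the 10 genes were sought among 9201 other genes with a mean of at least 10 CPM. These were Src (Pearson r 0.90), Entpd8 (0.88), Neu1 (0.87), Elmo1 (0.86), Gata5 (0.83) and Dennd1b (0.82), over 10 libraries that share their scaling. In all 6 genes cKO replicate 4 was the highest cKO animal, and in all but Neu1 WT replicate 5 was the lowest WT animal. The choice by likeness favours this, because the mean deviation of the 10 genes was highest among cKO animals in cKO replicate 4 (0.37). Among WT animals it was lowest in WT replicate 5 (−0.22). The likeness is a description of these libraries and carries no test.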

How the data were processed

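Polyadenylated RNA of jejunal crypts was sequenced from 5 WT and 5 Arid3a cKO mice, grouped by the labels. The authors ran nf-core/rnaseq with STAR and RSEM against the Ensembl annotation of GRCm38 and deposited, per gene and library, expected counts, TPM, FPKM, length and effective length, unfiltered and not normalized between libraries. FPKM were not used here. The strand setting was not given in the sources used here.

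Expected counts were rounded and fitted with edgeR 4.0.16 (R 4.3.3): filterByExpr (minimum count 10, minimum total count 15), TMM, robust quasi-likelihood test of genotype, Benjamini-Hochberg adjustment, threshold 0.05. Standard errors are the log2 fold change divided by the root of F, and the 95% intervals use the degrees of freedom of the fit. Deviations used log2(CPM + 0.5). The study also modelled time, of which these libraries have 1 level. At 27050455 to 31053622 counts per library, a gene at 1 CPM has few counts and a large counting error. Reads carry no molecular identifiers.

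Alternatives were DESeq2 1.42.0, scaling by RLE or by library size alone, no filter on low counts or at least 10 counts in every sample, limma 3.58.1 (voom, and trend on log2 TPM with pseudocounts of 0.5 and 0.1), the replicate number as a block, the effective length as an offset, each animal left out, and 1 added fit. Only the main edgeR fit was tested on simulated data, in which 196 of 14521 genes were changed. It called 73 of 98 genes changed by 1 on the log2 scale and 96 of 98 changed by 2, with 9 false calls. The alternatives were not tested in this way. Symbols came from GENCODE for GRCm38, and promoter windows from RefSeq. The named genes of other lists are up to 4 called per direction by size. The 10 genes, the lists and the tests were chosen with earlier results of these data known. The p-values weigh the genotype difference against the variation between animals.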

Additional observations from a re-analysis of the deposited data

Results flagged for a closer look

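Of 20 groups of 5 animals tested for a value far from the others, 1 per gene and genotype, 1 was singled out, and chance singles out about 1 in 20. Fosl2 was at 80.4 CPM in WT replicate 3, beside 67.1 to 69.8 CPM in the other WT animals, and the gap to the nearest animal was 0.779 of the range on the log2 scale, above the critical value of 0.71. In CPM this animal still lay below every cKO animal, but in TPM, at 16.45, it lay within the cKO range. Without it the log2 fold change of Fosl2 was 0.43 (edgeR, adjusted p = 0.00310).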

How the results depend on the processing

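None of the 10 genes, nor Arid3a, changed direction under any alternative. Of the 10 genes, 3 to 5 were called with single animals left out and 3 to 5 under the other fits of counts, 6 without WT replicate 5 and cKO replicate 4 together, and 1 (Fosb, lower) by limma on log2 TPM with a pseudocount of 0.5 or of 0.1. On that scale the 4 genes that rose had adjusted p from 0.0602 to 0.179, beside a median of all genes of −0.12, and the cause was not tested. Over all genes, 3007 to 4684 were called with single animals left out and 3006 to 5571 otherwise. Scaled by library size only, the calls over all genes went from 2298 higher and 1869 lower to 1541 higher and 4030 lower. Junb (0.34, adjusted p = 0.0512) and Maff (0.57, adjusted p = 0.0561) then missed the threshold, and Fosb (−0.95) and Ier2 (−0.25, adjusted p = 0.0412) passed it. Fos was lost without a filter (adjusted p = 0.0637). Fosb passed in 8 of the 20 other alternatives, among them DESeq2 (−0.81, adjusted p = 0.0393), and in the added fit without WT replicate 5 and cKO replicate 4. Arid3a was called in every fit that tested it, and had no value with at least 10 counts in every sample.

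Replicate numbers do not pair the animals. Deviations of same-numbered animals correlated at −0.15 to 0.19 over 5 pairs, and 0 of 10 libraries correlated best with their own number. With the replicate block 3052 genes and 5 of the 10 genes were called, Egr1 being added at −0.87 (adjusted p = 0.00526).

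Depth limits Fosb, with 19 to 70 counts per library, and Atf3 and Maff, with 28 to 113.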
